A study of Mus musculus with 4 samples.

Results

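The 10 genes described here encode transcription factors of the limb mesenchyme: Prrx1, Prrx2, Twist1, Twist2, Hand2, Alx4, Shox2, Lmx1b, Lhx2 and Lhx9. They were taken from a list of names and found in the deposited tag table by the Ensembl gene identifier that the table assigns to each sequence tag. This rule uses no measured value. All 10 were present among 16578 Ensembl genes with a count. Of 134117 counted tags with a gene or cluster, 93 carried an identifier of one of the 10 genes. These 93 tags held 21938 counts, and 52 of them had at least 10 counts over all libraries.

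Limbs of the CD1 strain, dissected from mouse embryos at E14.5, were profiled by DGE-SAGE in 2 forelimb and 2 hindlimb samples that the labels call biological replicates, 4 libraries in all. In this assay cDNA bound by its poly(A) end is cut by NlaIII, an enzyme that recognises CATG, and the 17 bases beside a CATG are sequenced and counted as a tag. The labels name no genetic change and no treatment, and pooling of embryos and any tie between equally numbered samples are not described in them. The p-values given here therefore measure the spread between these samples. In such bulk tissue, fewer cells of a type and less RNA per cell cannot be told apart.

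The limb bud begins as mesenchyme from the lateral plate under a cover of ectoderm, and its transcription factors divide the work by axis and by tissue. Prrx1 and Prrx2 mark the mesenchyme broadly, and the basic helix-loop-helix factors Twist1 and Twist2 keep cells of this lineage undifferentiated. Hand2 acts at the posterior edge, where it activates Shh, and Alx4 acts at the anterior edge, where it restrains Shh. Shox2 is needed for the upper segment of the limb, Lmx1b gives cells dorsal identity, and Lhx2 and Lhx9 are induced by FGF signals of the apical ridge and relay them into outgrowth. All of this is background and was not measured here.

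The tags on which the results turn are printed next, 5′ to 3′ on the transcript, with the NlaIII site in capitals and the counted bases in lower case. The first group holds the most abundant tag of each gene that has one under its own identifier.

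Prrx1: CATGaagtgattccttctcaa
Prrx2: CATGgccaacagcatcgccag
Twist1: CATGgtaaaatgcaaatagat
Twist2: CATGgcctgctcagctagccg
Hand2: CATGgatctgctggccaagga
Lmx1b: CATGgacgcttgggcctgggc
Lhx2: CATGcgcacctccttcaagca
Lhx9: CATGcacttttgcatctaaca

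The second group holds tags that went another way than their own gene's most abundant tag, or that compare a gene with its relative. The 2 coding tags of Twist1 and the Prrx1 tag in the last exon of the transcript Prrx1-204 are among the 4 most abundant tags of their genes. The Prrx1 and Twist2 tags labelled as homologous were chosen after their values were seen.

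Twist1 coding tag A: CATGtccgcgtcccactagca
Twist1 coding tag B: CATGgctaacgtgcgggagcg
Twist2 homologous tag: CATGtccgcctcccactagcg
Prrx1 homologous tag: CATGgccaacagcattgccaa
Prrx1-204 tag: CATGggggtttggtgtgcctt

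The third group holds tags that match a single gene of the GENCODE M21 annotation but carry no identifier of that gene in the deposited table.

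Shox2 unlabelled tag A: CATGtagctatttaaacaggg
Shox2 unlabelled tag B: CATGaaaacaaaattatttat
Alx4 unlabelled tag: CATGtaactacattatagcaa
Lmx1b unlabelled tag: CATGtggcccttgacaggggc
Hand2 unlabelled tag: CATGggtgatacctcaaaaga

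The libraries and the tags differed in base content. Bases G or C made up 40.8% and 40.3% of the counted bases in forelimb replicates 1 and 2, and 46.4% and 50.7% in hindlimb replicates 1 and 2, so the limb types did not overlap. Among the tags printed, Prrx1, Twist1 and Lhx9 had 6, 4 and 6 G or C bases of 17 in their most abundant tag. Prrx2, Twist2, Hand2, Lmx1b and Lhx2 had 11, 12, 10, 13 and 10.

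Library totals ran from 1829647 counts in forelimb replicate 2 to 5325279 in hindlimb replicate 1, and 1 count was worth between 0.222 and 0.618 CPM (a count scaled to library size, with edgeR's TMM factor). The limb labels were checked on 3 genes of limb identity. Tbx5, a forelimb gene, stood at 18.3 and 14.8 CPM in forelimb and at 0.889 and 1.51 CPM in hindlimb. Tbx4 and Pitx1, both hindlimb genes, stood at 3.09 to 8.66 and 1.24 to 3.31 CPM in forelimb against 42.9 to 57.2 and 253 to 303 CPM in hindlimb. All 10 connective tissue markers were counted, and their summed level was 17183 to 24203 CPM in forelimb against 13250 to 13768 CPM in hindlimb. Of this sum Col3a1 alone made up 15761 and 9394 CPM in forelimb and 5517 and 5704 CPM in hindlimb. The median log2 fold change of the 10, hindlimb over forelimb, was -0.15. By the test described next 2 of them passed, both higher in forelimb. The summed level of 8 muscle markers was 2224 to 2751 CPM against 930 to 1090 CPM, with 4 higher in forelimb, and that of 8 cartilage markers 2016 to 2295 CPM against 2924 to 4063 CPM, with 1 higher in each limb type. Of 8 epidermal markers (1164 to 1255 CPM against 1519 to 1892 CPM) 2 were higher in each limb type, and of 6 endothelial markers (155 to 207 CPM against 179 to 187 CPM) 2 in hindlimb and 1 in forelimb. Red cell markers (9666 to 12131 CPM against 7248 to 8579 CPM) gave 1 of 3 tested in each limb type, and 1 of 5 macrophage markers (77.9 to 95.8 CPM against 52.4 to 63.8 CPM) and 1 of 6 nerve markers (95.2 to 131 CPM against 57.2 to 71.6 CPM) were higher in forelimb. Over all tested genes that test called 9.58% higher in hindlimb and 7.08% higher in forelimb. The part of these tissues in the results was not tested.

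Hindlimb was compared with forelimb in a fit over all genes, by edgeR's quasi-likelihood test with Benjamini-Hochberg adjustment at 0.05. Log2 fold changes are hindlimb over forelimb throughout. Of the 10 factors, 8 had enough counts under their own identifier to be tested, and 3 of them, Prrx2, Twist2 and Hand2, were higher in hindlimb. By this test 0 were higher in forelimb, also at an unadjusted p under 0.05 and by DESeq2. Over all 13718 tested genes the test called 9.58% higher in hindlimb and 7.08% higher in forelimb. The median log2 fold change was 0.70 over the 8 factors and -0.029 over all tested genes.

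A tag-sequence offset was set beside this test: a correction per library for the bases of the tags, learned from how tags within a gene differ. With it 0 of the 8 factors passed in either direction by edgeR, and 1, Hand2, had an unadjusted p under 0.05. Over all genes the share called fell to 0.175%. Of the genes used to check the limb labels, Tbx4 (2.86, edgeR adjusted p = 0.00192) and Pitx1 (3.62, edgeR adjusted p = 1.6e-04) still passed with the offset. Tbx5 did not (-3.92, edgeR adjusted p = 0.0522), and the value of Pitx1 without the offset was 6.72. A call lost with the offset therefore does not show that the limb types were alike. Of the tissue markers, Dpt of connective tissue (-1.18, edgeR adjusted p = 0.0441) and Acta1 of muscle (-1.08, edgeR adjusted p = 0.0383) passed, both higher in forelimb. The median of the 8 factors was then 0.31, and that of all tested genes -0.012.

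**Figure D1:**
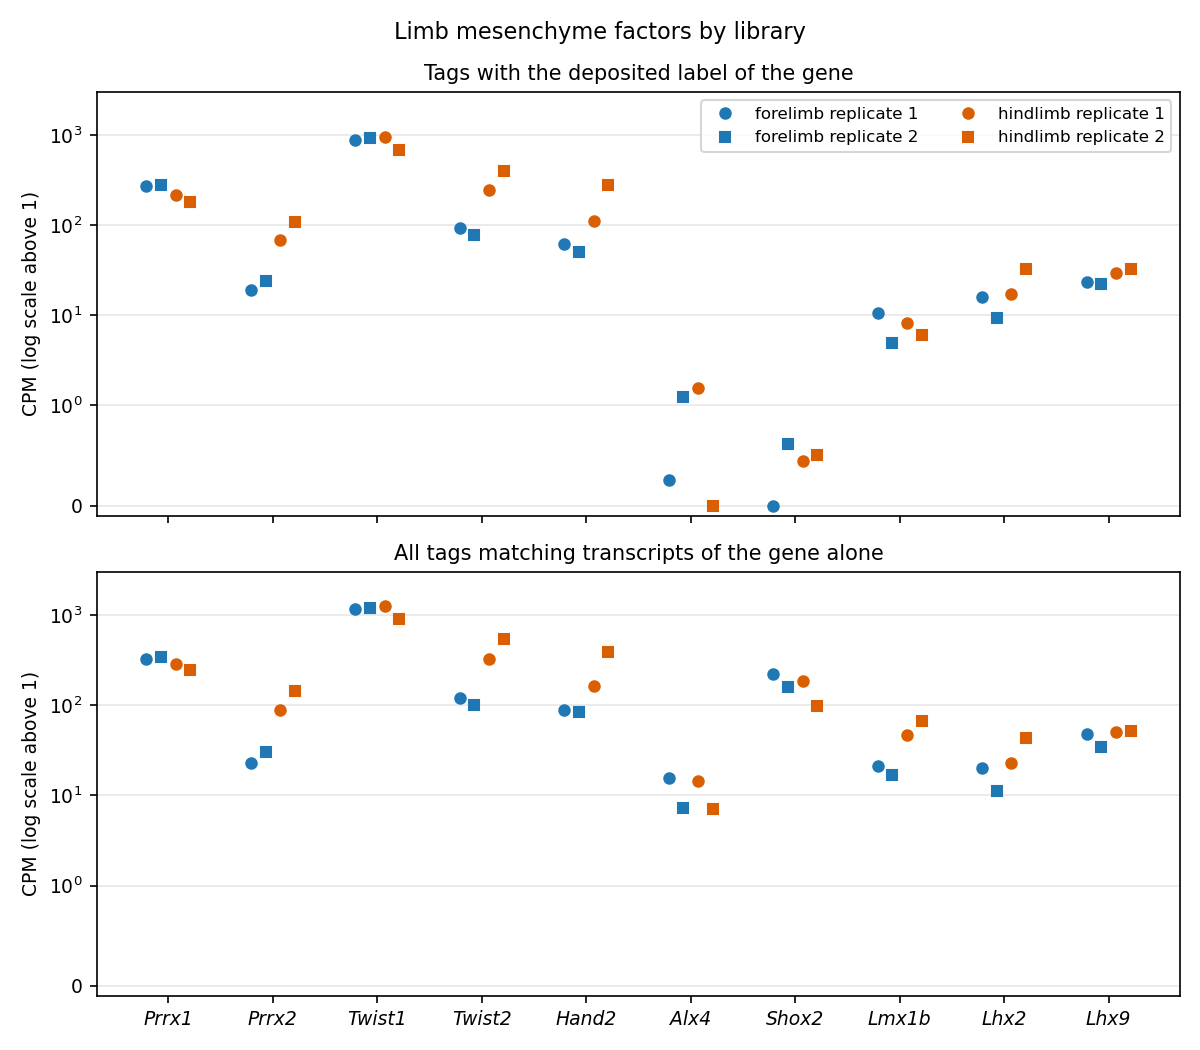
Level of each factor in CPM (vertical axis, linear below 1 and logarithmic above) in each of the 4 libraries, from tags with the gene's deposited identifier (upper panel) and from all tags that match transcripts of the gene alone (lower panel); blue is forelimb, orange hindlimb, circles replicate 1 and squares replicate 2. Prrx2, Twist2 and Hand2 sit higher in both hindlimb libraries in both panels, while Shox2 moves from under 1 CPM in the upper panel to between 98.2 and 223 CPM in the lower.

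The paired-related homeobox genes did not move together. Prrx1 (chr1:163245119-163313710, GRCm38) had 269 and 276 CPM in forelimb replicates 1 and 2, and 216 and 182 CPM in hindlimb replicates 1 and 2. Both hindlimb libraries lay below both forelimb libraries, but the log2 fold change of -0.45 ± 0.30 (SE) did not pass the test (edgeR adjusted p = 0.321), and its sign turned with the tag-sequence offset (0.34). Prrx2 (chr2:30834972-30881251) had 19.1 and 24.1 CPM in forelimb and 68.3 and 108 CPM in hindlimb. It was 4.12 times higher in hindlimb, a log2 fold change of 2.04 ± 0.38 (edgeR adjusted p = 0.00261), with the limb types well apart. The offset left a difference of 0.29 ± 0.26 (edgeR adjusted p = 0.803).

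Read within each library, Prrx2 held 6.63% and 8.04% of the counts of both Prrx genes in forelimb, with Wilson 95% intervals of 5.32 to 8.23% and 5.94 to 10.8%. In hindlimb it held 24% (21.7 to 26.4%) and 37.3% (34.5 to 40.1%). These intervals cover the counting error of tags only, not the spread between samples. Tags were amplified by PCR and carry no molecular identifier, so the counting error of molecules may be larger. The 2 hindlimb libraries lay apart from each other as well as from forelimb. The share was taken without the offset. G or C made up 65.9% of the counted bases of Prrx2 and 38.4% of those of Prrx1. Limb type and the base content of the libraries cannot be told apart in such a share. With the offset the log2 fold changes of Prrx1 and Prrx2 were 0.34 and 0.29.

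Single tags of Prrx1 ran both ways: 13 were tested, and their log2 fold changes lay between -2.40 and 2.85, with 5 above 0 and 8 below. One of the 8, CATGagatcaaagtacacaag (-1.24), lies on the antisense strand, and 261 antisense counts are part of the Prrx1 sum. Its most abundant tag lies in the 3′ UTR (chr1:163246070-163246090, minus strand), 972 bases before the end of the transcript, and had 424, 150, 242 and 180 counts in forelimb 1, forelimb 2, hindlimb 1 and hindlimb 2. On the CPM scale both hindlimb libraries were lower, with a log2 fold change of -1.02 ± 0.41 that did not pass the test over tags (edgeR adjusted p = 0.137). The next tags, with 6 G or C bases each, had log2 fold changes of 0.082 and -0.43, and neither passed.

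The tag in the last exon of Prrx1-204, a transcript annotated with another 3′ end, ran the opposite way. With 10 G or C bases it had 8, 12, 109 and 150 counts, a log2 fold change of 2.85 ± 0.68 (edgeR adjusted p = 0.0421). That call was lost without forelimb replicate 1 (2.07, edgeR adjusted p = 0.140) and under the offset (2.10, edgeR adjusted p = 0.326). Of 41 sense tags of Prrx1, labelled or not, 24 were placed on Prrx1-204, and they held 15.3% and 25.3% of the counts in forelimb and 25.2% and 27.4% in hindlimb. Forelimb replicate 2 and hindlimb replicate 1 were level, so this share overlapped between limb types. Another tag of the same exon, CATGagatattcattaaaaga, with 3 G or C bases and chosen after its values were seen, had 88, 76, 54 and 3 counts, lower in both hindlimb libraries, and did not pass (-2.40 ± 0.91, edgeR adjusted p = 0.122).

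The homologous tags of the pair lie in sequence that both genes share in part. From position 1 at the first base after CATG, the Prrx1 tag differs from the Prrx2 tag by T12C and A17G, and has 9 G or C bases where the other has 11. The Prrx1 tag had 27, 17, 59 and 53 counts, a log2 fold change of 0.63 ± 0.56 (edgeR adjusted p = 0.492). With the offset its sign turned (-0.20). The Prrx2 tag lies in the coding sequence at the last NlaIII site of its transcript, 403 bases from the end (chr2:30880849-30880869), and had 66, 31, 238 and 370 counts. Its log2 fold change was 2.02 ± 0.48 (edgeR adjusted p = 0.0409), and 0.43 with the offset. Each of these tags was higher in both hindlimb libraries than in both forelimb libraries, but only the second passed; the difference between them was not tested. The call of this single Prrx2 tag was lost without either forelimb replicate and without hindlimb replicate 2.

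Twist1 and Twist2 block or permit differentiation of mesenchyme by pairing with other basic helix-loop-helix proteins, and as in the Prrx pair 1 of them was called. Twist1 (chr12:33957671-33959829) had 880 and 926 CPM in forelimb and 961 and 681 CPM in hindlimb. The limb types overlapped, the log2 fold change was -0.14 ± 0.31 (edgeR adjusted p = 0.802), and its 95% interval ran from -0.80 to 0.52. The sign turned without hindlimb replicate 2 (0.10) and with the offset (0.093).

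Twist2 (chr1:91801461-91848028) had 91.9 and 77.9 CPM in forelimb and 245 and 402 CPM in hindlimb. The gene was 3.80 times higher in hindlimb, a log2 fold change of 1.92 ± 0.34 (edgeR adjusted p = 0.00195), and both hindlimb libraries lay above both forelimb libraries. Under the offset the value was -0.094 ± 0.22, near 0 and of the other sign. Twist2 held 9.46% (8.57 to 10.4%) and 7.75% (6.55 to 9.16%) of the counts of both Twist genes in forelimb, and 20.3% (19.3 to 21.4%) and 37.1% (35.7 to 38.6%) in hindlimb. This share too was taken without the offset. G or C made up 69.6% of the counted bases of Twist2 and 29.6% of those of Twist1. Limb type and base content of the libraries cannot be told apart in it.

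Within Twist1 the tags divided by where they lie, and base content divided them the same way. The coding tags have 11 and 12 G or C bases and the others 4 to 8, so position and base content cannot be told apart here. Of its counts, 73.5% came from the tag at the last NlaIII site (chr12:33959711-33959731), 119 bases before the transcript's end, with 4 G or C bases. That tag had 2732, 1126, 3086 and 1852 counts, in CPM slightly lower in both hindlimb libraries, and a log2 fold change of -0.28 ± 0.38 that did not pass (edgeR adjusted p = 0.679). Coding tag A, 719 bases from the end and with 11 G or C bases, had 13, 4, 172 and 136 counts.

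Coding tag B, 977 bases from the end and with 12 G or C bases, had 4, 10, 136 and 173 counts. Both coding tags were far higher in both hindlimb libraries, each with a log2 fold change of 3.58 (SE 0.56 for A and 0.76 for B; edgeR adjusted p = 0.0194 and 0.0334). Tag A passed without any one library, and tag B lost its call without forelimb replicate 1 (edgeR adjusted p = 0.0656). The offset left values of 0.59 and 1.44, neither past the test.

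Together the coding tags held 0.493% and 0.934% of Twist1 sense counts in forelimb and 7.13% and 11.4% in hindlimb. A test of whether tags of a gene differ in their fold change (diffSpliceDGE in edgeR, Simes p per gene) called Twist1 with an adjusted p of 0.00302. Among the 8 factors with tags to compare it was the only one called, and 4 had an unadjusted p under 0.05. Over all genes with such tags 3.78% were called. The share of all genes at an unadjusted p under 0.05 is not given here, so unadjusted counts of factors cannot be read against it. The Twist1 call was lost without forelimb replicate 1 (edgeR adjusted p = 0.274) and without forelimb replicate 2 (edgeR adjusted p = 0.151). On counts divided by the tag-sequence offset the edgeR test called 0 factors, 2 having an unadjusted p under 0.05, while 0.210% of all genes were. The offset was learned from differences between tags of a gene in these same libraries, which the usage test also measures. Fewer calls after it are therefore built in, and cannot decide whether tag usage differed.

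In Twist2 all 5 tags with at least 10 counts had 11 or 12 G or C bases. Its most abundant tag is at the last site of its transcript (chr1:91847876-91847896), 153 bases from the end, and had 204, 67, 798 and 1220 counts. It rose in hindlimb by a log2 fold change of 2.36 ± 0.45 (edgeR adjusted p = 0.0258), with a value of -0.18 after the offset. The next tags, with 11 and 12 G or C bases, had log2 fold changes of 1.09 and 0.81 that did not pass. The Twist2 tag homologous to Twist1 coding tag A differs from it by G6C and A17G and had 1, 1, 11 and 8 counts, too few to test. In both genes the homologous tag was higher in both hindlimb libraries.

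**Figure D2:**
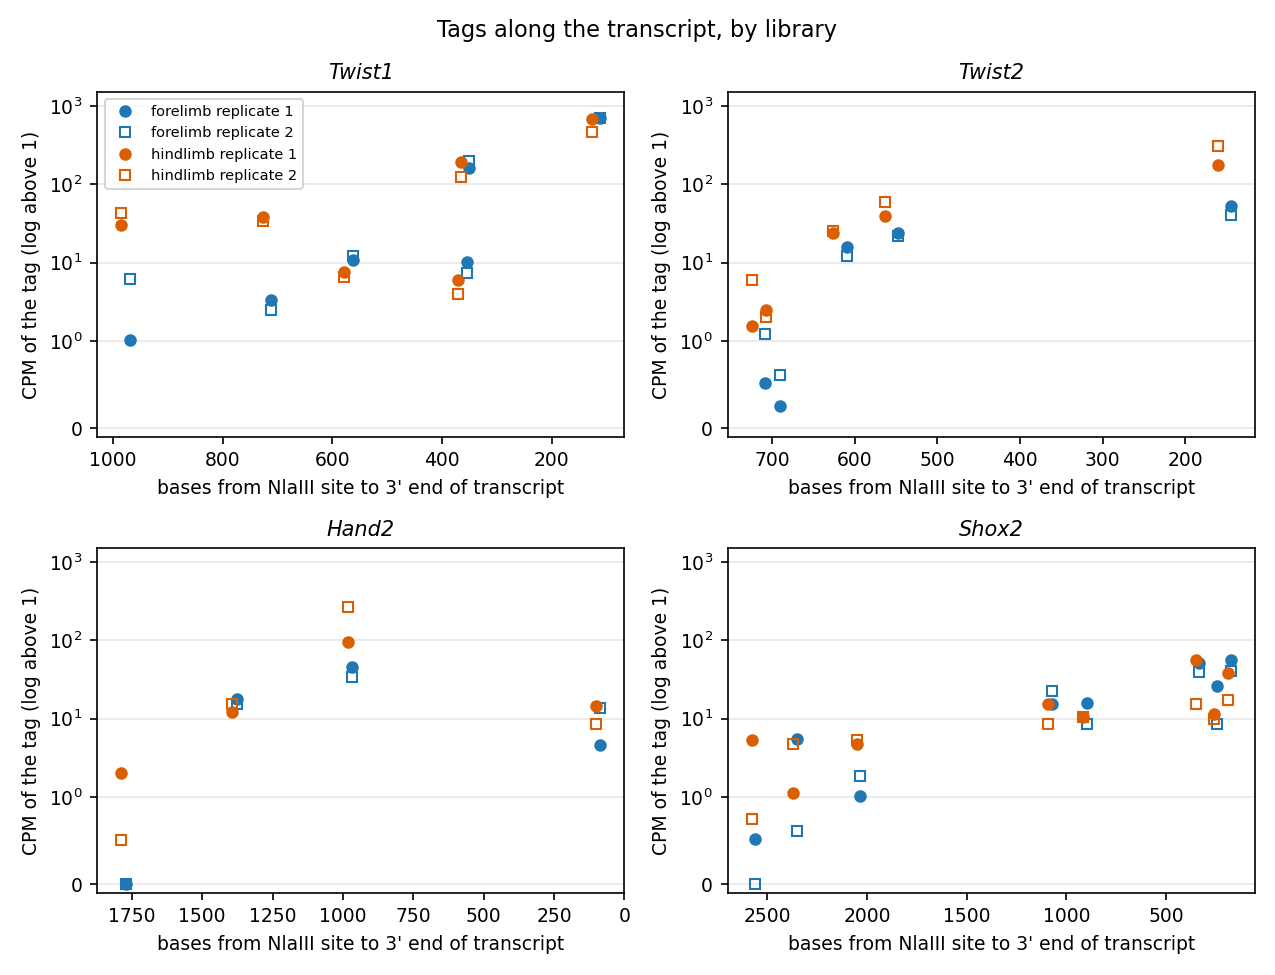
CPM of each sense tag with at least 10 counts (vertical axis, linear below 1 and logarithmic above) against the distance in bases from its NlaIII site to the 3′ end of the transcript, for Twist1, Twist2, Hand2 and Shox2; blue is forelimb, orange hindlimb, filled circles replicate 1 and open squares replicate 2, and the limb types are shifted by 8 bases to either side so that points can be told apart. In Twist1 the limb types lie close together at the tag 119 bases from the end and far apart at the coding tags 719 and 977 bases from the end, whereas in Twist2 they are apart at 153 bases.

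Hand2, the posterior factor upstream of Shh, was the third of the genes called. At chr8:57320983-57324633, it had 62.1 and 50.7 CPM in forelimb and 110 and 281 CPM in hindlimb. The hindlimb libraries were both higher but differed from each other more than the forelimb libraries did. The gene was 3.45 times higher in hindlimb, a log2 fold change of 1.79 ± 0.40 (edgeR adjusted p = 0.00674). Without hindlimb replicate 2 the log2 fold change was 0.97 (edgeR adjusted p = 0.0872), and without forelimb replicate 2 it was 1.64 (edgeR adjusted p = 0.0626). The offset brought it to 0.86 ± 0.26 (edgeR adjusted p = 0.238).

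Most of the Hand2 signal, 88.1% of its counts, was in 1 coding tag (chr8:57322359-57322379) that is not at the last NlaIII site. That tag had 176, 56, 430 and 1045 counts and a log2 fold change of 2.16 ± 0.54 (edgeR adjusted p = 0.0467). The call was lost without any one of forelimb replicate 1, forelimb replicate 2 and hindlimb replicate 2 (edgeR adjusted p of 0.0539 to 0.131), and in the fit over all tags matching 1 M21 gene (2.18, edgeR adjusted p = 0.0542), where 5 labelled tags of the factors were called. A second coding tag, CATGagggctacccattcgcc, with 11 G or C bases, had 68, 25, 55 and 61 counts, in CPM slightly lower in both hindlimb libraries, and a log2 fold change of -0.26 ± 0.50 that did not pass (edgeR adjusted p = 0.776). The unlabelled tag at the last site, 93 bases from the transcript's end and with 7 G or C bases, had 18, 22, 65 and 34 counts, with overlapping limb types and a log2 fold change of 0.43. Of the Hand2 tags tested, the most abundant alone passed, and the test of whether labelled Hand2 tags differ from each other did not (diffSpliceDGE adjusted p = 0.164).

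Alx4, the anterior factor, and Shox2, the factor of the upper limb segment, were almost without counts under their own identifiers. Alx4 (chr2:93642384-93681339) had 1, 2, 7 and 0 counts in the order given above, and Shox2 (chr3:66971727-66981771) had 0, 1, 2 and 2. All 5 Shox2 counts were in tags on the antisense strand. Neither gene was tested.

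Both genes had more counts in tags without their label. When every tag that matches the sense strand of transcripts of 1 M21 gene was counted, whatever its deposited label, Shox2 had 666, 200, 642 and 290 counts. None of these carried the Shox2 identifier: 3 tags in the coding sequence carried ENSMUSG00000093425, an identifier that is not in M21, and the others no gene at all. This count was chosen after the data had been seen. In CPM over tags matched this way the gene had 223 and 161 in forelimb and 188 and 98.2 in hindlimb, with overlapping limb types. Its log2 fold change was -0.43 ± 0.35 (edgeR adjusted p = 0.426), and 0.41 with the offset.

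Unlabelled tag A (chr3:66972102-66972122, minus strand, 6 G or C bases) had 198, 64, 254 and 62 counts, and unlabelled tag B, at the last site and with 1 G or C base, had 219, 67, 171 and 70. In CPM the limb types overlapped for tag A, and both hindlimb libraries were lower for tag B, but neither passed (log2 fold changes of -0.31 and -0.79). With the offset both signs turned, to 0.25 for tag A and 1.15 for tag B, and neither passed. The coding tag CATGatgttcccggcaccgcc, with 12 G or C bases and chosen after its values were seen, had 4, 3, 21 and 21 counts and a log2 fold change of 1.86 that did not pass (edgeR adjusted p = 0.222).

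Of 126 sense counts that matched Alx4, 92.1% had no label of the gene. Summed, they gave 47, 9, 49 and 21 counts, or 15.7 and 7.24 CPM in forelimb and 14.4 and 7.11 CPM in hindlimb. Each limb type had a higher first and a lower second library, the limb types overlapped, and the log2 fold change was -0.14 ± 0.62 (edgeR adjusted p = 0.897). Its unlabelled tag at the last site, with 4 G or C bases, had 46, 5, 22 and 0 counts, and the tag CATGtcccccagcagacagaa, with 10, had 0, 2, 16 and 21.

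Lmx1b, the dorsal LIM-homeodomain factor, changed with the way its tags were counted. Under its own identifier (chr2:33560965-33640511) it had 10.7 and 4.94 CPM in forelimb and 8.23 and 6.05 CPM in hindlimb, with overlapping limb types and a log2 fold change of -0.18 ± 0.64 (edgeR adjusted p = 0.875). The tag-sequence offset moved it to -1.11 ± 0.65 (edgeR adjusted p = 0.663), and a lowess offset on GC to -1.19 (edgeR adjusted p = 0.281). That count left out 84.1% of the sense counts that matched the gene alone and took in 36 antisense counts. From all matching tags the level was 21.4 and 16.9 CPM in forelimb and 47.2 and 66.1 CPM in hindlimb.

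On this count Lmx1b was 2.91 times higher in hindlimb, a log2 fold change of 1.54 ± 0.40 (edgeR adjusted p = 0.0133). The call was lost without forelimb replicate 2 (edgeR adjusted p = 0.103), without hindlimb replicate 2 (edgeR adjusted p = 0.0756) and with the offset (0.26 ± 0.32, edgeR adjusted p = 0.873). The unlabelled tag at the last site, 330 bases from the end and with 12 G or C bases, had 29, 10, 57 and 85 counts, higher in both hindlimb libraries without passing the test (1.32 ± 0.58, edgeR adjusted p = 0.176). The most abundant labelled tag, with 13 G or C bases, was absent from both forelimb libraries and had 18 and 21 counts in hindlimb. Set against 3 counts over the forelimb libraries it was 8.45-fold higher in hindlimb, a ratio that takes in no spread between samples and no offset. Its test over tags did not pass (edgeR adjusted p = 0.0555, and 0.618 with the offset). Where this tag alone stood for the gene in the fit over genes it did pass (edgeR adjusted p = 0.0177), and 4 factors were then called.

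Lhx2 and Lhx9, the LIM-homeodomain factors of outgrowth, were both somewhat higher in hindlimb without passing the test. Lhx2 (chr2:38339281-38369733) had 15.8 and 9.27 CPM in forelimb and 17.3 and 32.3 CPM in hindlimb (log2 fold change 0.94 ± 0.47, edgeR adjusted p = 0.174). It passed only when hindlimb replicate 1 was left out (1.30, edgeR adjusted p = 0.0449). Lhx9 (chr1:138825186-138848577) had 23.2 and 22.2 CPM in forelimb and 29.8 and 32.5 CPM in hindlimb (log2 fold change 0.45 ± 0.38, edgeR adjusted p = 0.443), with a 95% interval from -0.35 to 1.25.

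The tag-sequence offset gave 0.71 for Lhx2 and 0.33 for Lhx9, and neither passed. Lhx2 held 40.5% and 29.4% of the counts of both genes in forelimb and 36.8% and 49.8% in hindlimb, and the limb types overlapped, unlike in the Prrx and Twist pairs. The most abundant Lhx2 tag, a coding tag with 10 G or C bases, had 35, 7, 62 and 108 counts and a log2 fold change of 1.55 ± 0.62 (edgeR adjusted p = 0.135). A second coding tag, CATGcacaacgtgtaacaaga, with 7 G or C bases, had 25, 3, 5 and 0 counts, lower in both hindlimb libraries and too few to test. The most abundant Lhx9 tag, with 6 G or C bases, lies 2923 bases before the annotated end with 14 further NlaIII sites after it, and had 72, 25, 101 and 98 counts, with hindlimb higher and a log2 fold change of 0.46 ± 0.47 that did not pass (edgeR adjusted p = 0.550).

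Counted over genes, the libraries of the limb types did not overlap for 6 of the 8 tested factors: hindlimb was higher for Prrx2, Twist2, Hand2, Lhx2 and Lhx9, and forelimb for Prrx1. Over all tested genes hindlimb lay above in 31.4% and forelimb above in 31.4%.

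From all matching tags all 10 factors could be tested, and 4 were higher in hindlimb: Prrx2, Twist2, Hand2 and Lmx1b. By edgeR 0 were higher in forelimb, also at an unadjusted p under 0.05; DESeq2 was not run on this count. Over the 12548 genes tested this way 9.89% were called higher in hindlimb and 6.78% higher in forelimb. With the tag-sequence offset 0 factors passed, 0.422% of all genes did, and Hand2 alone had an unadjusted p under 0.05 (0.88 ± 0.24, edgeR adjusted p = 0.0964).

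**Figure D3:**
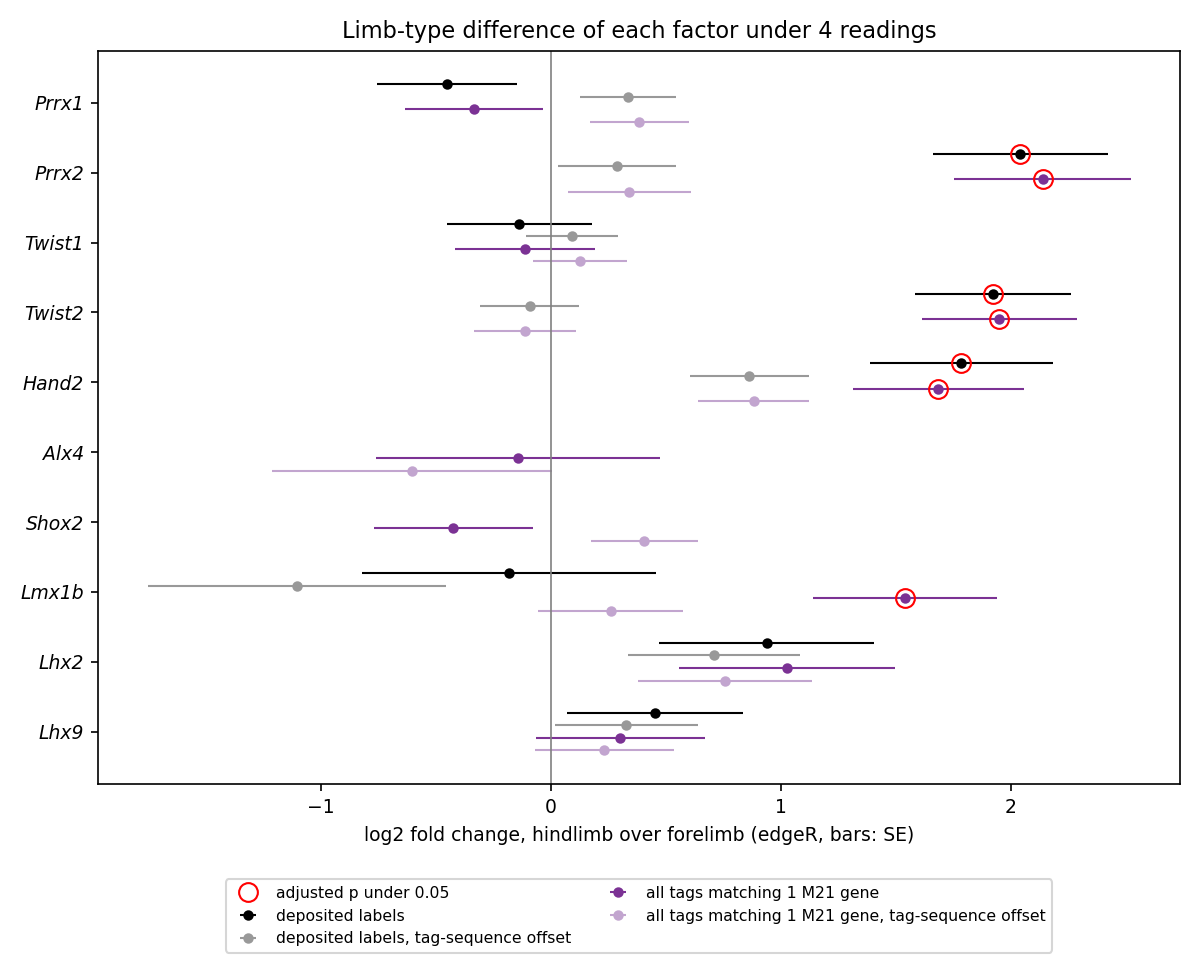
Log2 fold change, hindlimb over forelimb, of each factor by edgeR (horizontal axis; bars are SE), from deposited labels (black), from deposited labels with the tag-sequence offset (grey), from all tags matching 1 M21 gene (dark purple) and from those with the offset (light purple); red rings mark an adjusted p under 0.05. Prrx2, Twist2 and Hand2 are ringed on both counts without the offset and Lmx1b on 1 of them, and no value with the offset is ringed; Prrx2 goes from 2.04 to 0.29 and Twist2 from 1.92 to -0.094.

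Counted by single tags, 30 labelled tags of the factors had enough counts to be tested, and 6 were higher in hindlimb. They were the most abundant tags of Prrx2, Twist2 and Hand2, the Prrx1-204 tag and the 2 coding tags of Twist1, and each had 10 to 12 G or C bases. By edgeR 0 of the 30 were higher in forelimb, and 3 were at an unadjusted p under 0.05. Over all 37805 tested tags 4.59% were called higher in hindlimb and 1.64% higher in forelimb. The libraries did not overlap with hindlimb above for 15 of the 30 tags and with forelimb above for 10, against 30.7% and 31.6% of all tested tags. With the tag-sequence offset 0 of the 30 passed in either direction, 5 were higher in hindlimb and 0 in forelimb at an unadjusted p under 0.05, and 0.0582% of all tested tags passed.

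Tested tags were also arranged by base content. With up to 5 G or C bases the median log2 fold change was -0.79 over 4 tags of the factors and -1.03 over all tested tags. With 6 to 8 it was -0.43 over 11 tags and -0.43 over all. From 9 to 11 it was 1.32 over 10 tags and 0.79 over all, and from 12 upwards 2.80 over 5 tags and 2.36 over all. In both sets the medians lay below 0 up to 8 G or C bases and above 0 from 9 upwards. Calls in the 2 upper ranges were 4 of the 10 factor tags (40.0%) against 7.80% of all tested tags, and 2 of 5 (40.0%) against 28.8%.

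Across the 42 labelled sense tags with at least 10 counts, the log2 ratio and the number of G or C bases had a Pearson's r of 0.73 and a Spearman's rho of 0.75. The tags share libraries and, in part, genes. Over all tested tags the values were 0.60 and 0.59. Within single genes, with unlabelled sense tags added, r was 0.62 and rho 0.56 over 22 tags of Prrx1, 0.87 and 0.81 over 8 of Shox2, and 0.75 and 0.54 over 11 of Lmx1b. Among the tested genes, G or C made up 65.9%, 69.6% and 59.7% of the counted bases of Prrx2, Twist2 and Hand2, the 3 called, against 38.4% for Prrx1, 38.1% for Lhx9 and 29.6% for Twist1. Lmx1b, with 61.0%, above Hand2, and Lhx2, with 57.1%, were not called.

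**Figure D4:**
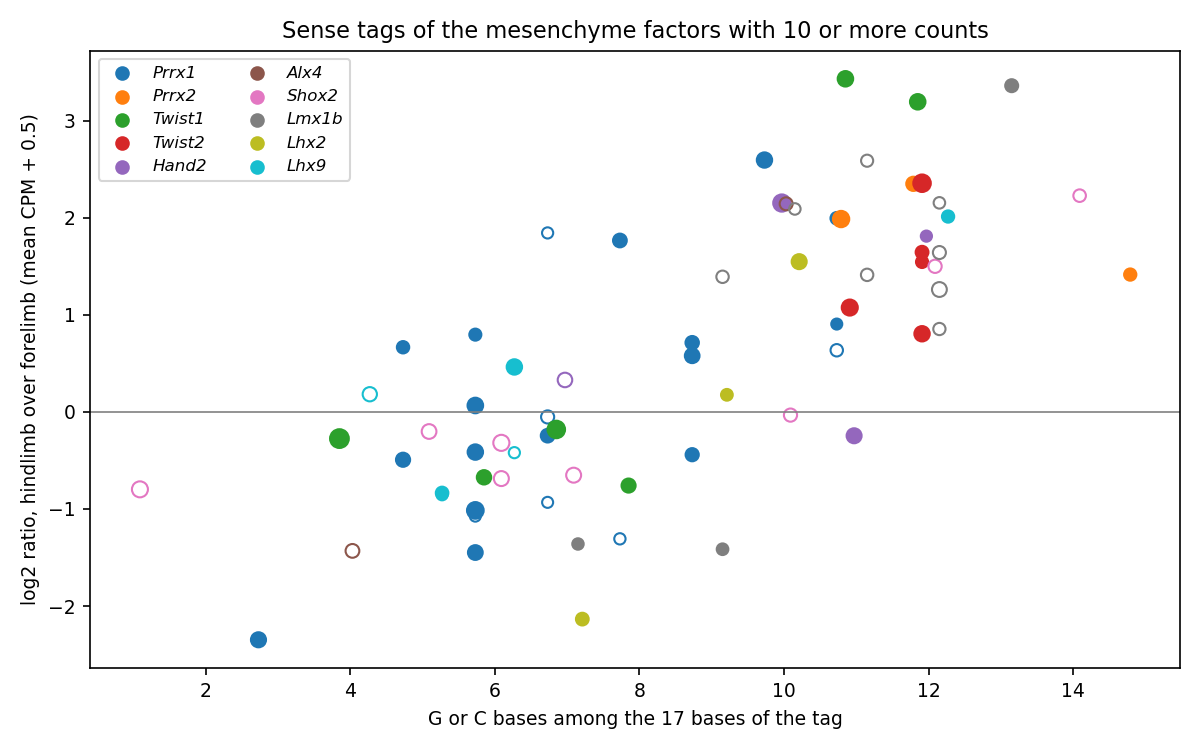
Log2 ratio of mean CPM, hindlimb over forelimb (0.5 CPM added to both), of sense tags with at least 10 counts against their number of G or C bases of 17, coloured by gene and sized by total count; filled points carry the gene's deposited identifier, open points do not, and genes are shifted slightly sideways. Points rise from left to right, and the highest are the Twist1 coding tags and the Lmx1b tag with 13 G or C bases.

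Proteins that work with these factors were read from lists of genes. The E proteins pair with Twist and Hand factors and the Id proteins take E proteins away from them: of 7 such genes 0 were higher in hindlimb by edgeR, with 1 at an unadjusted p under 0.05 and 1, Id2, by DESeq2, and 1 was higher in forelimb. That gene was Id3, with 165 and 313 CPM in forelimb and 97.2 and 41.3 CPM in hindlimb (log2 fold change -1.78 ± 0.41, edgeR adjusted p = 0.00761). Without forelimb replicate 2 the Id3 call was lost (-1.26, edgeR adjusted p = 0.114), and its value was -0.13 with the offset. DESeq2 called 2 of the 7 higher in forelimb. The median of the 7 was -0.54, and -0.024 with the offset.

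LIM-homeodomain proteins act through Ldb cofactors, which LMO proteins compete for. Of 9 such genes tested 0 were higher in hindlimb by edgeR, also at an unadjusted p under 0.05 and by DESeq2, and 1 was higher in forelimb. Lmo4 had 480 and 588 CPM in forelimb and 223 and 166 CPM in hindlimb (log2 fold change -1.45 ± 0.32, edgeR adjusted p = 0.00612), and its value with the offset was -0.18. The Lmo4 call was lost without forelimb replicate 2 (edgeR adjusted p = 0.0719) and from last-site tags (-0.90, edgeR adjusted p = 0.196). The median of the 9 was -0.25, and 0.12 with the offset.

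Of 17 relatives of the factors 4 had enough counts to be tested, and 1 was higher in hindlimb. Scx, a basic helix-loop-helix factor of tendon, had 16.0 and 8.03 CPM in forelimb and 68.5 and 104 CPM in hindlimb (log2 fold change 2.77 ± 0.42, edgeR adjusted p = 6.8e-04), and its value with the offset was 0.76. By edgeR and by DESeq2 0 of the 4 were higher in forelimb, also at an unadjusted p under 0.05. The median was 0.54, and 0.19 with the offset.

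Of 24 tested genes of limb signalling 2 passed as higher in hindlimb and 1 as higher in forelimb. Their median was 0.42, and -0.0010 with the offset. Fgfr1, a receptor for FGFs of the apical ridge, rose by a log2 fold change of 1.28 ± 0.31 (edgeR adjusted p = 0.00968), and Msx1, a homeobox gene downstream of BMP signals, by 1.19 ± 0.33 (edgeR adjusted p = 0.0191). Their values with the offset were 0.076 and 0.21. Both calls were lost without either forelimb replicate (edgeR adjusted p of 0.112 and 0.108 for Fgfr1, and of 0.202 and 0.119 for Msx1). Tbx3, a T-box repressor of the limb margins, had 24.2 and 43.9 CPM in forelimb and 10.2 and 7.06 CPM in hindlimb (log2 fold change -1.95 ± 0.46, edgeR adjusted p = 0.00911), a call lost without forelimb replicate 2 (-1.48, edgeR adjusted p = 0.0920). The Tbx3 value with the offset was -0.97. Shh, the target of Hand2, had between 0.00 and 4.54 CPM in the 4 libraries and did not pass (edgeR adjusted p = 0.443). With the tag-sequence offset 0 genes of the 4 lists passed by edgeR, where Id2 and Scx were higher in hindlimb and Tcf12 and Tbx3 higher in forelimb at an unadjusted p under 0.05.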

How the data were processed

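Tag counts of 4 libraries were deposited by the authors in 1 table as raw whole numbers, each tag beside its Ensembl gene or UniGene cluster where it had one. Bowtie and the build mm9 are named in the submitters' processing notes; how Bowtie was run is not given in the sources used. Tags without a gene or cluster, 14.8% to 18.7% of a library's counts, stayed out of library sizes and tests. Counts were summed per Ensembl gene, or per cluster, and fitted by edgeR 4.0.16 in R 4.3.3 (quasi-likelihood, TMM, filterByExpr, no block for the replicate number), with 2 residual degrees of freedom. Single tags were fitted likewise, and tag usage by diffSpliceDGE on tags with at least 10 counts. DESeq2 1.42.0 was an alternative.

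Tags were matched to GENCODE M21 transcripts by the 17 bases beside each CATG; positions are GRCm38, not mm9, and each tag is placed on the protein-coding transcript whose sites hold most of the gene's counts. The tag-sequence offset models base and position, the first dinucleotide and squared GC and purine numbers, fitted to contrasts among tags within a gene (61466 tags of 11818 genes). A lowess offset on GC (span 0.3) was also run. For usage, counts were divided by the offset, since diffSpliceDGE takes 1 offset per library. Scripts were tested on simulated data.

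The factors, the lists of regulators (E and Id proteins, LIM cofactors, relatives, limb signalling) and of markers (connective tissue, cartilage, muscle, epidermis, endothelium, red cells, macrophage, nerve) and the offset were chosen with earlier results of these data known. Named were all factors, their 4 most abundant tags with 10 counts, Tbx5, Tbx4 and Pitx1, and up to 3 called genes of each regulator list; other genes and tags were chosen after their values were seen. Equal replicate numbers did not pair the samples in the labels.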

Additional observations from a re-analysis of the deposited data

Results flagged for a closer look

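Signal was found in tags that the gene-level counts of the deposited identifiers leave out. On the sense strand, tags that matched a factor alone but lacked its identifier held 1798 counts for Shox2, 371 for Lmx1b, 169 for Prrx1, 148 for Lhx9, 139 for Hand2 and 116 for Alx4 over the 4 libraries. For Shox2 and Alx4 these were 100% and 92.1% of all sense counts of the gene. Among all genes, 7.46% of the counts in tags of 1 M21 gene had no gene or cluster.

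On the antisense strand of the factors' transcripts, tags without the gene's identifier held 534 counts for Twist1, 282 for Prrx1, 266 for Twist2, 88 for Lhx9, 87 for Shox2, 40 for Hand2 and 4 for Lmx1b. The largest was a tag at the last NlaIII site of Twist1, CATGggtcatcaataaataaa, with 171, 60, 144 and 75 counts in forelimb 1, forelimb 2, hindlimb 1 and hindlimb 2. The source of the antisense counts was not tested.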

How the results depend on the processing

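The calls of Prrx2, Twist2 and Hand2 were kept by edgeR with library totals alone, RLE size factors, no low-count filter or the crossed numbers, and by DESeq2. Hand2 had no labelled tag at the last NlaIII site, so its call could not be checked in the fit of last-site tags. With 1 library left out, genes called higher in hindlimb, 1314 with all libraries, numbered 583 to 1899, and those higher in forelimb, 971, numbered 367 to 2001. Factor tags called higher in hindlimb, 6, numbered 2 to 9, and those higher in forelimb, 0, numbered 0 to 3; 1 was the count without forelimb replicate 1 and 3 that without hindlimb replicate 1. Factors with differing tag usage, 1, numbered 0 to 4, and 2 at a minimum of 20 counts per tag. A fit that leaves a limb type with 1 library assumes that it varies like the other type.

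The lowess GC offset gave 415 genes higher in hindlimb, 438 in forelimb and 0 factors. The tag-sequence offset gave 13 and 11 genes, 0 factors, 0 factor tags and 0 factors with differing usage. From all tags matching 1 M21 gene with that offset, 36 and 17 genes, 0 factors and 0 factor tags were called. The log2 fold changes of Prrx2, Twist2 and Hand2 with the lowess offset were 0.62, 0.24 and 0.73, none past the test.

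Signs turned as follows. With the tag-sequence offset on deposited labels, Prrx1 was 0.34, Twist1 0.093 and Twist2 -0.094; from all matching tags with it, Prrx1 was 0.38, Twist1 0.13, Twist2 -0.11, Shox2 0.41 and Lmx1b 0.26. Twist1 was 0.64 with the lowess offset and 0.10 without hindlimb replicate 2; with 1 library left out it ran from -0.42 to 0.10. Lmx1b, -0.18, was 0.51 from tags of 1 M21 gene and 1.54 from all matching tags. Its fitted 7.01 from its most abundant tag and 6.99 from last-site tags passed, but depend on the prior count, since the tag that leads them has no forelimb count. Set against 3 counts over the forelimb libraries, that tag was 8.45-fold higher in hindlimb. With 1 library left out, Lmx1b on its own label ran from -0.59 to 0.53. Alx4 from all matching tags ran from -0.75 to 0.56. The most abundant Prrx1 tag was 0.57 with the offset and 0.61 from all matching tags with it, that of Twist1 0.41 and 0.44, that of Twist2 -0.18 and -0.21, and the third Twist2 tag -0.11 and -0.16. The second Prrx1 tag ran from -0.25 to 0.41, and the first and second Twist1 tags from -0.64 to 0.076 and from -0.58 to 0.20. With the tag-sequence offset the Prrx1 homologous tag was -0.20 and the tested antisense tag of Prrx1 0.69. From all matching tags with it, Shox2 unlabelled tags A and B were 0.25 and 1.15. The cause was not tested.

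With the replicate number as a block, 1179 and 969 genes, 3 factors and 2 factor tags, both of Twist1, were called; the tags of Prrx1-204, Prrx2, Twist2 and Hand2 were not (edgeR adjusted p of 0.0616, 0.0972, 0.0665 and 0.111). Whether the numbers pair the samples is not given; the deviations of same-numbered libraries had a correlation of -0.11. With the numbers crossed, chosen after the data had been seen, 1486 genes were called higher in forelimb, while factor calls stayed at 3. Depth limits Alx4, Lmx1b and single tags: forelimb replicate 2 holds 1829647 counts, where 1 count is 0.618 CPM.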
